A study of Homo sapiens with 33 samples.

Results

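The oligonucleotide tiles TSIX_1 to TSIX_235, an unbroken run of numbers, were chosen by name from the CTCF pool, which holds 985 tiles of 9 source RNAs, and no measured value entered the choice. The pool was carried by HEK293T cells, a human embryonic kidney line, in which CTCF tagged with FLAG and GFP was overexpressed. Cells were collected 48 hours after transfection, fixed with 0.1% formaldehyde for 10 minutes and quenched with 125 mM glycine for 5 minutes. RNA from the FLAG immunoprecipitate (IP, 3 libraries) was compared with Input RNA (3 libraries) by counting amplicon reads for each tile and for each of its 24 barcodes. Both fractions came from cells with the tagged protein, and no precipitation without it or with another antibody was among the groups of this pool, so recovery with CTCF and recovery in any precipitation cannot be told apart. The labels do not say whether the replicate numbers 1 to 3 stand for separate cultures, and p-values measure only the spread between these libraries.

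TSIX is a long noncoding RNA of the X chromosome, transcribed antisense to XIST, the RNA that coats and silences an X chromosome in female cells. In mouse, Tsix transcription keeps Xist off on the future active X, and the human gene is less well understood. CTCF is a zinc-finger protein that binds DNA at insulators and loop anchors. It has also been reported to bind RNA, in mouse including Tsix and Xist transcripts. A tile is a designed stretch of its source RNA. The names give a tile number but no position, and the tile sequences were not used here.

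Of these tiles, 233 had enough reads for testing and 2 did not. The 2 were TSIX_26, with 0 reads in IP and 2 in Input over 3 libraries each, and TSIX_27, with 0 and 4. The libraries of the pool held 44570966 to 58020403 reads in IP and 35234255 to 51341630 in Input. TSIX_1 to TSIX_235 together took 18.6%, 20.1% and 19.7% of the reads in IP replicates 1, 2 and 3, against 21.2%, 22.9% and 22.8% in Input. Every IP share thus lay below every Input share. The median tile of these libraries had 31850 to 40022 reads in IP and 26628 to 41067 in Input, so counting error was small beside the differences between libraries. Levels are given below in CPM, the read count of a tile scaled to its library.

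Tiles that rose in the IP were few. In the fit without pairing, edgeR's quasi-likelihood test called 5 of the 233 tiles higher (2.15%), against 2.87% of all 977 tiles of the pool. With the replicate number added as a block, 13 tiles were called higher (5.58%), against 15.5% of the pool. The member share was close to that of the pool without pairing and below it with the block.

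TSIX_198 had 699.6, 777 and 1019.8 CPM in IP replicates 1, 2 and 3, against 469.6, 345 and 348 CPM in Input. All 3 IP values lay above all 3 Input values. Its log2 fold change was 1.10 ± 0.22 (SE, n = 3 against 3, edgeR adjusted p = 0.0399), or 2.15-fold, and 17 of 24 barcodes were higher by their mean over replicates. TSIX_5 had 921, 1089.7 and 1273 CPM in IP, against 479, 544 and 515 CPM in Input. Its IP libraries differed by at most 1.38 times among themselves, and its log2 fold change was 1.09 ± 0.17 (adjusted p = 0.0360, edgeR). In TSIX_5, 18 of 24 barcodes were higher. The 3 remaining tiles were lower in their fold. TSIX_22 had 953, 1023 and 1120 CPM in IP, against 673, 479.7 and 418 CPM in Input (0.98 ± 0.21 on the log2 scale). TSIX_155 reached 639.5, 866 and 790.4 CPM in IP, against 462, 374 and 359.9 CPM in Input (0.94 ± 0.20). TSIX_183, the most abundant of the 5, held 1649, 1899.8 and 1959 CPM in IP, against 982, 1061 and 1236 CPM in Input (0.75 ± 0.15). The fractions did not overlap in any of these 3 tiles, and 20 of 24, 17 of 24 and 21 of 24 barcodes were higher in TSIX_22, TSIX_155 and TSIX_183.

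Lower tiles were more numerous. Without pairing, 7 of 233 tiles fell (3%, against 1.94% of the pool), and with the block 47 fell (20.2%, against 12.2%). Under TMM scaling, rises and falls are relative to the pool, whose median log2 fold change was 0.0020. They do not measure absolute gain or loss in the precipitation. TSIX_117 had 296, 483 and 402 CPM in IP, against 749, 977 and 980.3 CPM in Input. Each IP library thus held less than the lowest Input library, the log2 fold change was -1.20 ± 0.23 (SE, n = 3 against 3, edgeR adjusted p = 0.0386), and 0 of 24 barcodes were higher. TSIX_125 had 582, 685 and 476 CPM in IP, against 1089, 1351 and 1219 CPM in Input (-1.07 ± 0.19 on the log2 scale, adjusted p = 0.0362, edgeR). Its barcodes moved nearly as 1 group, with 1 of 24 higher and a middle range of -1.70 to -1.25 in log2 ratio from the first to the third quartile. TSIX_28 had 667, 562 and 615 CPM in IP, against 1093, 1246 and 1193 CPM in Input (-0.94 ± 0.15). Its IP libraries agreed within 1.19 times of each other and its Input libraries within 1.14 times. In number TSIX_28 follows TSIX_26 and TSIX_27, the 2 tiles with almost no reads.

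The other 4 called tiles fell by less than 0.9 on the log2 scale. TSIX_208 held 483, 555 and 389.8 CPM in IP, against 882, 866 and 836 CPM in Input (-0.86 ± 0.18). TSIX_148 held 614, 468 and 502 CPM in IP, against 825, 948 and 1043 CPM in Input (-0.83 ± 0.18). Both lost on average over nearly all barcodes, of which 0 of 23 and 3 of 24 were higher. TSIX_134 held 1062, 897 and 1047 CPM in IP, against 1466, 1753 and 1738 CPM in Input (-0.72 ± 0.14). TSIX_113, the most abundant of the 7, held 1672, 1285 and 1380.0 CPM in IP, against 2245, 2409.5 and 2370.3 CPM in Input (-0.70 ± 0.15). In neither did the fractions overlap, and only 2 of 24 and 2 of 24 barcodes were higher. For all 12 tiles called without pairing, the barcodes make up the summed counts that were tested. A call also favours fractions that do not overlap, so neither trait is separate support for the calls. Over all barcodes used of the TSIX tiles studied here, 28.6% were higher.

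These calls depended on which libraries were used and on the scaling. Without any 1 of IP replicate 2, IP replicate 3, Input replicate 2 or Input replicate 3 no tile of the whole pool passed in edgeR. Among the 233, 38 to 63 had an unadjusted p under 0.05, and the 12 named tiles then had adjusted p up to 0.266. Without IP replicate 1, 7 were higher (3%, against 5.83% of the pool) and 23 lower (9.87%, against 5.53%). Without Input replicate 1, 8 were higher (3.43%, against 8.5%) and 22 lower (9.44%, against 5.32%). Without both libraries numbered 1, 26 were higher (11.2%, against 24.4%) and 72 lower (30.9%, against 21.9%). All 12 were among the calls each time, and the number of calls went up over the whole pool. The Wald test of DESeq2 gave 9 higher (3.86%, against 10.4% of the pool) and 34 lower (14.6%, against 7.88%). Scaled by library size alone, 5 were higher (2.15%, against 4.09%) and 12 lower (5.15%, against 2.66%). When the TMM factors were taken from the tiles of GAPDH and PPIA, which were themselves higher in IP (median log2 fold change 0.53 and 0.26), the median of all tiles moved to -0.45 and 0 tiles were higher, as in the whole pool, and 41 lower (17.6%, against 8.7% of the pool).

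Pairing of libraries by replicate number raised the count of called tiles to 60, against 12 without it, and all 12 were among the 60. The 47 lower tiles had log2 fold changes of -1.21 to -0.38, and only 3 of them reached a 2-fold difference. All 47 were lower in each of the 3 replicate pairs, and 35 had no overlap between fractions. The blocked test favours tiles that agree over the pairs, so these counts follow in part from the selection and add no support. Among those called only with the block, TSIX_209 was lowest, at 492, 217 and 252 CPM in IP, against 719, 551 and 591 CPM in Input (-1.04 ± 0.23 with the block, adjusted p = 0.0211 in edgeR, 0.124 without it). TSIX_149, next to TSIX_148, had 301, 218 and 406 CPM in IP, against 654, 555 and 575 CPM in Input. TSIX_135, next to TSIX_134, had 607, 875 and 478 CPM in IP, against 1494, 1174 and 1108 CPM in Input. These 3 tiles adjoin tiles that were called without pairing. The log2 ratio of TSIX_18 was -1.38, -0.61 and -0.70 in replicates 1, 2 and 3, and that of TSIX_162 was -0.70, -0.77 and -1.01. Without pairing their adjusted p was 0.136 and 0.0791 in edgeR.

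The 13 tiles called higher with the block had log2 fold changes of 0.40 to 1.10. All 13 were higher in each replicate pair, which the blocked test favours. TSIX_101 had 967, 1533 and 1486 CPM in IP, against 877, 509 and 566 CPM in Input, and 23 of 24 barcodes were higher. Its log2 ratio was 0.14, 1.59 and 1.39 in replicates 1, 2 and 3, so replicate 1 showed little of the difference. TSIX_51 was among the most abundant tiles, at 6133, 4577 and 4234 CPM in IP and 3509, 3169 and 3205 CPM in Input, and 22 of 23 barcodes were higher. TSIX_179 was the only tile called higher in which every barcode used was higher (23 of 23), though its fractions overlapped, at 3465, 2237 and 2168 CPM in IP and 2268, 1418 and 1596 CPM in Input. Replicate 1 was the highest library of each fraction there, and the log2 ratio was nearly constant over the numbers, at 0.61, 0.66 and 0.44. TSIX_219 and TSIX_94 were at 0.84 ± 0.18 and 0.85 ± 0.20 with the block. Left out in turn, the replicates changed these counts over the whole pool. With the block but without replicate 1, 28 tiles were called higher (12%, against 24.9% of the pool) and 78 lower (33.5%, against 23.6%). Without replicate 2, 4 were higher (1.72%, against 6.25%) and 16 lower (6.9%, against 4.41%). Without replicate 3 edgeR called 0 tiles of the pool in either direction (67 of the 233 had an unadjusted p under 0.05).

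Most of the remaining 173 tiles lay near or below 0. Some had large values that passed in neither fit. TSIX_200 had the lowest log2 fold change, -1.98 ± 1.10, but was scarce, at 1.51, 3.01 and 15.9 CPM in IP and 17.3, 31.2 and 32.4 CPM in Input, with 996 and 3700 reads in all (adjusted p = 0.272 in edgeR). TSIX_96 had 44.1, 309 and 311 CPM in IP, against 329, 483 and 462 CPM in Input, and none of its 24 barcodes was higher. TSIX_81 had 21.2, 408 and 235.2 CPM in IP and 164, 554 and 537 CPM in Input. In these 3 tiles replicate 1 was the lowest library of both fractions. On the other side, TSIX_25 (log2 fold change 0.86 ± 0.43), TSIX_3 (0.85 ± 0.32) and TSIX_184 (0.72 ± 0.26) had no overlap between fractions and did not pass (adjusted p of 0.135 to 0.228 in edgeR). In TSIX_25 only 9 of 24 barcodes were higher although the summed reads were.

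Seen over all 233 tiles, the distribution lay below that of the pool. The median log2 fold change was -0.21 (quartiles -0.51 and 0.14), against 0.0020 over all 977 tiles. The median log2 ratio was -0.25, -0.24 and -0.24 in replicates 1, 2 and 3, so the replicate numbers differed little in it. In 113 tiles (48.5%) IP was below Input in all 3 pairs, against 31.1% of the pool, and in 41 (17.6%) it was above in all 3, against 30.9%. Without regard to pairs, the fractions did not overlap in 61 tiles as lower (26.2%, against 15.7% of the pool) and in 26 as higher (11.2%, against 18.1%). TSIX tiles after TSIX_235 had a median of -0.12 and XIST tiles one of 0.026. Without pairing, 9 of the 238 later TSIX tiles were called lower and 1 higher, and of the 243 XIST tiles 3 and 9. With the block, 13.4% of the later TSIX tiles and 12.8% of XIST tiles were called lower, and 4.20% and 16.0% higher. Few higher calls were thus found in the later TSIX tiles too. These differences between sets of tiles were not tested.

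Along the tile numbers, the calls were scattered. The 13 tiles called higher with the block formed 12 separate runs, of which 11 were 1 tile long and the other was TSIX_182 and TSIX_183. The 47 lower tiles formed 35 runs, and the longest, at tiles 58 to 60, 128 to 130, 133 to 135 and 207 to 209, held 3 tiles. In 5 consecutive blocks of 47 tile numbers the median log2 fold change was -0.021 for tiles 1 to 47, -0.32 for 48 to 94, -0.36 for 95 to 141, -0.19 for 142 to 188 and -0.14 for the last 47, TSIX_189 to TSIX_235. Tiles 95 to 141 held 4 of the 7 tiles called lower without pairing and none of the 5 called higher. Over the pool 1.94% were called lower and 2.87% higher. With the replicate block, 11.1%, 17.0%, 25.5%, 25.5% and 21.3% of these 5 groups, in order, were called lower, against 12.2% of the pool. As higher, 6.67%, 4.26%, 2.13%, 10.6% and 4.26% were called, against 15.5%. Tiles 142 to 188 thus had the same share of lower calls as tiles 95 to 141. The fold changes of neighbouring tiles were weakly related, with a Pearson r across tiles of 0.29 at a distance of 1 tile number (231 neighbours), 0.12 at 2 and -0.012 at 5. These tiles share their libraries, and neighbours may share sequence.

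Means over 5 consecutive tiles showed the same unevenness. The highest windows were TSIX 181 to 185, at a mean log2 ratio of 0.48 (SD 0.14, n = 3 replicate numbers), TSIX 217 to 221, at 0.44 (SD 0.13, n = 3 replicate numbers), and TSIX 1 to 5, at 0.41 (SD 0.17, n = 3 replicate numbers). Each of these 3 was above 0 in every replicate number. The lowest windows varied far more between replicate numbers. TSIX 77 to 81 had -2.30, -0.68 and -0.52 in replicates 1, 2 and 3, TSIX 123 to 127 had -1.69, -0.72 and -0.65, and TSIX 199 to 203, which holds the scarce TSIX_200, had -1.96, -1.59 and 0.25. The first 2 were below 0 throughout, whereas the last was above 0 in replicate 3. Of 225 windows, 128 were below 0 in all 3 replicate numbers and 25 above 0.

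Sharp steps between neighbours were tested directly, as the difference in log2 CPM between a tile and the next within a library, which does not depend on the scaling of the library. Limma called 9 of 231 neighbouring pairs apart between IP and Input (3.9%, against 2.39% of the 963 pairs of the pool), and with the block 17 (7.36%, against 7.48%), the 9 included. Of the 9, 3 were upward (1.3%, against 0.831% of the pool) and 6 downward (2.6%, against 1.56%), and of the 17 with the block 8 were upward (3.46%, against 3.84%) and 9 downward (3.9%, against 3.63%). Each of the 9 pairs holds a tile already called from the same counts, so the steps are not separate support for those calls. TSIX_5, TSIX_113, TSIX_117, TSIX_148, TSIX_155 and TSIX_198 were called without pairing, and TSIX_107, TSIX_169 and TSIX_212 with the block only. Among the 9 called pairs the largest step was at TSIX_197 and TSIX_198. Larger differences that did not pass were seen elsewhere. TSIX_198 minus TSIX_197 was -1.03, -1.20 and -0.48 in IP replicates 1, 2 and 3, against -2.16, -2.38 and -2.54 in Input, a difference of 1.46 ± 0.24 (SE, limma adjusted p = 0.0251). TSIX_198 was thus the scarcer of the 2 in every library, but by less in IP. From TSIX_4 to TSIX_5 the step was 2.12, 1.81 and 1.93 in IP, against 0.84, 0.73 and 0.92 in Input (1.13 ± 0.22). From TSIX_113 to TSIX_114 it was 0.019, -0.20 and -0.15 in IP, against -0.91, -1.13 and -1.08 in Input (0.93 ± 0.16), so these tiles were close to equal in IP and unequal in Input.

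In the other 6 pairs the second tile lost ground to the first. TSIX_169 minus TSIX_168 was -0.73, -0.64 and -0.37 in IP, against 0.50, 0.91 and 0.92 in Input (-1.36 ± 0.24, limma adjusted p = 0.0280), and the order of the 2 tiles was the opposite in the fractions. TSIX_156 minus TSIX_155, of which TSIX_155 was called higher above, was 0.15, -0.41 and -0.064 in IP, against 1.07, 1.29 and 1.32 in Input. TSIX_212 minus TSIX_211 was -0.74, -1.18 and -0.96 in IP, against 0.083, -0.018 and 0.15 in Input, so these tiles were apart in IP and about equal in Input. Both were among the 3 tiles of most Input reads, so this step rests on deep counts: TSIX_212 had 2492, 1796 and 1794 CPM in IP, against 2916, 3688 and 3940.0 CPM in Input, and TSIX_211 had 4152, 4062 and 3482 CPM in IP, against 2754, 3733 and 3562 CPM in Input. For TSIX_148 minus TSIX_147, TSIX_117 minus TSIX_116 and TSIX_107 minus TSIX_106 the differences were -1.16 ± 0.17, -1.09 ± 0.21 and -1.002 ± 0.20. None of the 9 pairs passed without IP replicate 2 or 3 or Input replicate 2 or 3. Limma then called 0 pairs of the whole pool (27 to 50 of the 231 had an unadjusted p under 0.05). Without IP replicate 1, 21 of the 231 pairs were called (9.09%, against 8.52% of the pool), the 9 among them. Without Input replicate 1, 18 were called (7.79%, against 5.82% of the pool), with 8 of the 9 among them. With the block, 54 steps were called without replicate 1 (23.4%, against 25.6% of the pool), 0 in the pool without replicate 2 (29 of the 231 with an unadjusted p under 0.05, limma) and 16 without replicate 3 (6.93%, against 4.79% of the pool).

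Abundance in Input went with the fold change. Pearson's r across the 233 tiles between the log2 fold change and log2 of the Input reads was -0.25, a description of values that share the Input libraries. Ordered by Input reads, the 59 scarcest tiles (132 to 55415 reads over 3 libraries) had a median of 0.064 and the next 3 groups of 58 had -0.29, -0.32 and -0.35. With the block 0, 5, 17 and 25 tiles of these groups, in the same order, were called lower, and 3, 6, 2 and 2 higher. As shares, 0%, 8.62%, 29.3% and 43.1% were lower, against 12.2% of all tiles of the pool, and 5.08%, 10.3%, 3.45% and 3.45% were higher, against 15.5%. The pool shares are over tiles of every abundance, so they do not show whether abundant tiles of other RNAs were called as often. The scarcest group was also the most variable, with an SD of log2 ratios across tiles of 1.94, 1.02 and 1.02 in replicates 1, 2 and 3, against 0.44, 0.41 and 0.39 in the most abundant. TSIX_165, the tile of most Input reads, had 2783, 2185 and 1805 CPM in IP, against 3625, 3627 and 3776 CPM in Input, and 0 of 24 barcodes were higher. It was called with the block (-0.73 ± 0.16, adjusted p = 0.0194 in edgeR) and not without it (0.0660). TSIX_33, the scarcest tile tested, had 199 reads in IP and 132 in Input over 3 libraries each, and its sign changed between settings. The part of abundance in the calls was not tested.

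The 24 barcodes of a tile carry the same stretch of RNA and show how evenly it was recovered. Of the 5473 barcodes with at least 30 reads in all, 1568 (28.6%) were higher in IP by their mean log2 ratio, against 43.1% of the 17476 other barcodes of the pool. Most barcodes were lower in 189 of the 233 tiles and most were higher in 40. In 27 tiles, TSIX_25 among them, the summed reads were higher in IP while most barcodes were lower, and the opposite occurred in 0. These counts of tiles were not set against the rest of the pool, so they do not show a trait particular to TSIX. With the median over barcodes in place of the sum, the median tile was at -0.45, against -0.18 over the pool, and 1 tile was called higher (0.429%, against 1.43% of the pool) and 13 lower (5.58%, against 2.97%). Without the barcode of most reads of each tile, 3 tiles were called higher (1.29%, against 2.87% of the pool) and 6 lower (2.58%, against 1.84%).

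Barcodes went missing more often in IP. Of the 5640 barcodes of these tiles, 7.41%, 8.10% and 9.20% had no read in IP replicates 1, 2 and 3, against 3.32%, 3.40% and 2.87% in Input. Over the whole pool these shares were 7.16% to 8.92% in IP and 3.00% to 4.34% in Input. In IP, 511 barcodes were at 0 in 1 library, 173 in 2 and 179 in all 3, against 91, 54 and 114 in Input. Absence from 1 library was the most frequent kind in IP, and absence from all 3 in Input. Barcodes with at least 300 Input reads had no read in the IP library of the same number in 29 of 4389 cases in replicate 1, 147 of 4717 in replicate 2 and 202 of 4844 in replicate 3. The opposite, at least 300 IP reads and none in Input, was seen in 2, 10 and 2 barcodes. When each barcode was tested against the rest of its tile, limma called 0 of 5377, and 0 of the 22488 of the pool. At an unadjusted p under 0.05, 253 member barcodes (4.71%) passed without pairing, against 4.94% of the pool, and 272 (5.06%, against 5.06%) with the block.

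Replicate 1 had more tiles of unusually low level than the others in both fractions. Its IP library held under 1/2 of the CPM in both other IP libraries in 23 of the 233 tiles, against 2 for replicate 2 and 0 for replicate 3. Its Input library did so in 14 tiles, and all 14 were among the 23. In 22 of these 23 tiles IP was below Input in replicate 1, which their choice by a low IP value favours. They were scarcer than the rest, with a median of 34522 Input reads over 3 libraries, against 114704. None of them was called without pairing and 2 with the block. TSIX_81 was such a tile. The part of these low values in the fold changes was not tested. Across the 233 tiles the SD of the log2 ratio was 1.22 in replicate 1, 0.67 in replicate 2 and 0.77 in replicate 3. The ratios of replicates 2 and 3 had the same sign in 194 of 233 tiles, those of 1 and 2 in 184 and those of 1 and 3 in 163. Pearson's r across these tiles gave another order, at 0.45 for replicates 1 and 2, 0.33 for 2 and 3 and -0.087 for 1 and 3, where Spearman's rho was 0.54, 0.65 and 0.34. These are descriptions of tiles that share their libraries.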

How the data were processed

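The read counts were used as the authors deposited them, in 1 table with a line for each tile and barcode and a column for each library. The values are raw: whole numbers with unequal column totals. How reads were assigned to tiles and barcodes is not given in the sources used here. Molecular identifiers are not mentioned either, and PCR reads without them are not independent molecules, so statements on depth cover counting error only. Each column name matched 1 sample title. Library pairs within a fraction differed by a chi-square per degree of freedom of 257 to 4611, far above sampling noise.

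Counts were summed over barcodes. After filterByExpr and TMM scaling, all tiles of the pool were tested with edgeR 4.0.16 in R 4.3.3 (quasi-likelihood F test, robust). Benjamini-Hochberg adjusted p under 0.05 was a call. Standard errors were derived from the fold change and F. Log2 ratios per replicate used a prior count of 2. Steps between neighbours and barcodes were tested with limma 3.58.1 (trend and robust). DESeq2 1.42.0 was an alternative. The edgeR fit and the limma tests of steps and barcodes were also run on simulated counts, with and without the block. DESeq2, the other scalings and the median over barcodes were not. The simulation gave IP and Input libraries of the same number a shared effect. It therefore cannot show how the block performs where that pairing is weak.

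The main fit had no pairing. Deviations from the group mean of same-numbered IP and Input libraries correlated across the 977 tiles at 0.70, 0.68 and 0.29 for replicates 1, 2 and 3, so the numbers were taken to pair the libraries, and blocked values are given beside the others. IP replicate 3 correlated more with an Input library of another number (0.57). Across the 233 TSIX tiles the correlations were 0.83, 0.77 and 0.17, and IP replicate 3 again correlated more with another number (0.60). The pairing of replicate 3 was thus weakly borne out, and calls with the block rest in part on it.

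Tiles named were those called without pairing, the 5 highest and 5 lowest called only with the block, the 3 highest and 3 lowest called in neither, the 3 of most and 3 of fewest Input reads, called steps, and the 3 highest and 3 lowest windows. The tiles, tests and rules were chosen with earlier results of these data known.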

Additional observations from a re-analysis of the deposited data

How the results depend on the processing

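The counts of called tiles, 5 higher and 7 lower without pairing, were the same with RLE size factors, without a filter and with a mean count of at least 50. With the replicate number as a block they were 13 and 47, and 17 steps between neighbours were called, against 9 without it. DESeq2 gave 9 and 34, library size alone 5 and 12, TMM factors from GAPDH and PPIA tiles 0 and 41, and a test against a log2 fold change of 0.5 gave 0 and 0 (22 tiles at an unadjusted p under 0.05, edgeR). When the barcode of most reads was dropped from each tile, 3 were higher and 6 lower, and without both libraries numbered 1 26 and 72. With 1 library left out the tiles called higher ranged from 0 to 8, those lower from 0 to 23 and the steps from 0 to 21. The cause of these changes was not tested. Chosen after seeing the data, the median over barcodes gave 1 and 13, and the block gave 28 higher, 78 lower and 54 steps without replicate 1, 4, 16 and 0 without replicate 2, and 0, 0 and 16 without replicate 3. The 12 tiles called without pairing kept their sign in every setting. The sign changed for TSIX_25 with the median over barcodes (-0.16), for TSIX_211 with GAPDH and PPIA factors (-0.26), and for TSIX_33 (-0.010 with those factors, -0.24 without its barcode of most reads, -1.10 without IP replicate 3, -0.094 and -0.088 without Input replicate 1 and 3, and -1.55 with the block but not replicate 3), which reached 6.66 without Input replicate 2 and has too few reads to give a direction. The named windows kept their direction by library size alone, and barcodes against their tile gave 0 calls in all settings tried.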

Other observations

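No barcode passed the test against the rest of its tile, and the 2 of smallest p are named here after their values were seen. Barcode 16 of TSIX_137 had 413, 1176 and 1342 reads in IP replicates 1, 2 and 3, against 5341, 5384 and 5172 in Input. Relative to the other barcodes of TSIX_137 its log2 CPM differed by -2.49 in IP minus Input (SE 0.52, limma adjusted p = 0.862). Barcode 9 of TSIX_73 had 6711, 5419 and 5361 reads in IP, against 1969, 1946 and 3120 in Input, a difference from its tile of 1.39 (SE 0.34, adjusted p = 0.862, limma).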
